A study of Mus musculus with 12 samples.

Results

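The genes described here encode the subunits of the muscle nicotinic acetylcholine receptor, the ion channel of the neuromuscular junction. They were chosen by name, and all 5 were present in the deposited table: Chrna1 (alpha), Chrnb1 (beta), Chrnd (delta), Chrne (epsilon) and Chrng (gamma), out of 24528 genes. RNA came from gastrocnemius muscle, a calf muscle, of male mice aged 4 months, with 6 KO and 6 WT animals and 1 library per mouse. The KO mice carried floxed Ank2 alleles and an HSA-Cre transgene, whose promoter is known for activity in skeletal muscle fibres. The WT mice carried the same floxed alleles without Cre, so an effect of Cre itself and of the deletion cannot be told apart. Ank2 encodes ankyrin-B, an adaptor between membrane proteins and the spectrin cytoskeleton; the study set muscle with its deletion beside muscle without.

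The receptor is a ring of subunits in which the alpha subunits, together with a neighbouring subunit, bind acetylcholine released by the motor nerve. The fetal receptor contains gamma, and after birth epsilon takes its place. In innervated adult muscle the subunit genes are known to be transcribed mainly by the nuclei beneath the synapse. After loss of nerve activity alpha, beta, gamma and delta transcripts are known to reappear along the whole fibre.

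Chrna1 rose to 5.63 times its WT level in KO muscle, and its KO libraries all lay above its WT libraries. The fetal subunit gene Chrng was near zero in WT muscle and higher in 5 of the 6 KO libraries. Chrnb1 and Chrne rose by less, to 1.59 and 1.42 times the WT level, and their groups overlapped. Chrnd, with a similar ratio of 1.62 and few reads, did not pass the test. These ratios are means of scaled reads, which were recovered from the deposited log2 values and are described with each result.

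E-boxes, the binding motif of myogenic factors such as MyoD and myogenin, and the N-box, a motif bound by the Ets factor GABP, are known elements of these genes' promoters. RefSeq (GRCm38.p6) gave a promoter for 4 of the 5 members, all but Chrnd. The windows of Chrna1 and Chrng, the members with the largest ratios, are shown beside that of Chrne, the adult counterpart of Chrng. Each runs from 180 to 31 bases before the RefSeq start on the gene's own strand, at chr2:73580369-73580518 (minus strand) for Chrna1, chr1:87205631-87205780 (plus strand) for Chrng and chr11:70619225-70619374 (minus strand) for Chrne. The RefSeq start of Chrng lies inside the longer gene that GENCODE M21 annotates, and none of the 3 windows holds a GENCODE exonic base. Capitals mark the E-box CANNTG and the N-box CCGGAA.
Chrna1: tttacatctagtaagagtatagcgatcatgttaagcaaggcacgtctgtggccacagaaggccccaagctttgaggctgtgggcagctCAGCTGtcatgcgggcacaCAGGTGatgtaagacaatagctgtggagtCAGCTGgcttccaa
Chrng: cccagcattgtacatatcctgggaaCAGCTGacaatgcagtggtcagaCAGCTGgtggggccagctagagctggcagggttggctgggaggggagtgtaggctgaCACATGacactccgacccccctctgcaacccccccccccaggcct
Chrne: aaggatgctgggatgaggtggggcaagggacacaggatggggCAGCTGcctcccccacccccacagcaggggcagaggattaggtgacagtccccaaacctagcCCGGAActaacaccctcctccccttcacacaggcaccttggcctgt
Within the 250 bases before the start, searched on both strands, Chrna1, Chrng and Chrnb1 held 3 E-boxes each and Chrne held 1. Among 32851 mouse promoter windows of that length, 66.2% held at least 1 E-box and 12.2% at least 3. The E-box core CAGCTG, a subset of the E-box pattern, stood at 2 places in Chrna1, 2 in Chrng and 1 in Chrne, and in 13% of all windows at least once and 1.26% at least 2 times. The N-box was matched in Chrne alone among the 4 windows, 76 bases before the start, and in 12.0% of all windows. A match describes letters in a window and is not evidence of binding.

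The deposited values are on a log2 scale with a shared lowest value of 5.57. They compress differences between low values, so the deposited difference understates the change of a gene with few reads. Estimated depth was 12283488 to 18705923 reads per library, 16177849 ± 1810501 in KO and 14140396 ± 1795551 in WT (SD, n = 6 each). Ank2, the targeted gene, was at 7.54 to 8.03 in KO and 8.40 to 9.22 in WT on the deposited scale, without overlap. In scaled reads its mean in KO was 0.331 times that in WT, with 98 to 208 estimated reads left per KO library, against 250 to 475 in WT. KO 2 lay nearest to the WT libraries in Chrna1, Chrnb1 and Chrng, and values without it are given where it matters. A filter required 10 or more estimated reads in 6 or more libraries. Of the 12278 genes that passed it, limma with Benjamini-Hochberg adjustment called 760 at an adjusted p of 0.05, which is 6.19%. Of all tested genes, 3.13% were called higher and 3.06% lower in KO. In bulk tissue, fewer cells of a type and less RNA per cell cannot be told apart.

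Chrna1 encodes the alpha subunit, which carries most of the acetylcholine-binding site, and is located at chr2:73563215-73580338 (mm10, minus strand). Its deposited log2 values were 10.90, 8.92, 10.81, 10.22, 9.71 and 10.60 in KO 1 to KO 6, against 8.17, 8.22, 8.30, 8.18, 8.27 and 8.27 in WT 1 to WT 6. Every KO library lay above every WT library, a pattern that 1.26% of tested genes showed. In scaled reads, Chrna1 stood at 1204 ± 560 in KO and 214 ± 10.9 in WT (SD, n = 6 each). The change on the deposited scale was 1.96 (SE 0.30, 95% interval 1.31 to 2.61, limma adjusted p = 0.00702). An exact two-sided permutation test gave p = 0.00216, the lowest value possible with 924 ways of assigning the libraries. It was the sixth largest positive difference of all tested genes, and it passed the test under all 18 alternatives. Without KO 2 the ratio of scaled reads was 6.39 and the deposited difference 2.22.

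The KO animals varied far more in Chrna1 than the WT animals did. The variance of the deposited values was 204 times as large in KO as in WT, against a median of 1.31 over the tested genes, and no other tested gene had a ratio as high. The size of this ratio rests in part on a small WT spread. The SD of Chrna1 was 0.761 in KO and 0.053 in WT. For Chrne, with nearly the same WT mean (8.23), it was 0.261 in KO and 0.106 in WT. The estimated reads ran from 341 in KO 2 to 2172 in KO 1, against 176 to 220 in WT. The WT libraries lay within a narrow band, and KO 1 and KO 3 lay farthest above it.

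Chrng encodes the gamma subunit of the fetal receptor, known in adult muscle for its return after denervation. It is located at chr1:87204657-87212694 (plus strand), and 4586 bases separate it from Chrnd upstream. Its estimated reads were 69, 3, 42, 20, 19 and 22 in KO 1 to KO 6, against 3, 2, 3, 2, 3 and 1 in WT 1 to WT 6. KO 2 lay within the WT range, and the other KO libraries lay above every WT library. Chrng did not pass the filter on low values and had no place in the main fit. Its deposited values were 6.54 ± 0.39 in KO and 5.90 ± 0.07 in WT (SD, n = 6 each), a difference of 0.64 (exact two-sided permutation p = 0.00433). Over the group totals of 175 reads in KO and 14 in WT, the ratio at equal depth was 10.7, with an exact 95% interval from 6.22 to 20.02 that covers counting error only.

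Chrne encodes the epsilon subunit, which distinguishes the adult receptor, and is located at chr11:70614883-70619216 (minus strand). Its deposited log2 values were 9.00, 8.58, 8.78, 8.45, 8.50 and 8.26 in KO 1 to KO 6, against 8.18, 8.25, 8.16, 8.40, 8.27 and 8.10 in WT 1 to WT 6. In KO, 5 of the 6 libraries lay above every WT library, while KO 6 lay inside the WT range. KO 2 ranked 3 from the top among the KO libraries here, whereas it ranked 6 for Chrna1 and Chrng. The change was 0.37 (SE 0.10, 95% interval 0.15 to 0.59, limma adjusted p = 0.0438; exact permutation p = 0.00649). The call ended without any 1 of KO 1, KO 3, WT 1, WT 2, WT 3, WT 5 and WT 6 (adjusted p from 0.0722 to 0.102), with limma-voom on estimated reads (0.48, adjusted p = 0.0521) and without trend and robust moderation (adjusted p = 0.0519). The gene spans another annotated gene, 4930544D05Rik, on the other strand, with no shared exonic base.

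Chrnb1 encodes the beta subunit, found in both the fetal and the adult receptor, and is located at chr11:69784036-69795943 (minus strand). Its deposited log2 values were 10.15, 9.33, 9.88, 9.73, 9.56 and 9.91 in KO 1 to KO 6, against 8.95, 9.15, 9.07, 9.63, 8.95 and 9.32 in WT 1 to WT 6. The groups overlapped through WT 4, which stood above KO 2 and KO 5. The change was 0.58 (SE 0.14, 95% interval 0.29 to 0.87, limma adjusted p = 0.0264; exact permutation p = 0.00866). The call ended without any 1 of KO 1, KO 3, KO 6, WT 1, WT 2, WT 3 and WT 5, with adjusted p from 0.0530 to 0.0676 and differences from 0.51 to 0.58.

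Chrnd encodes the delta subunit, which like beta belongs to both receptor forms, and is located at chr1:87190607-87200070 (plus strand). Its estimated reads were 90, 29, 80, 32, 42 and 54 in KO 1 to KO 6, against 24, 25, 37, 14, 38 and 30 in WT 1 to WT 6. KO 1, KO 3 and KO 6 lay above every WT library on the deposited scale, and the other KO libraries lay among the WT libraries. The deposited difference was 0.28 (SE 0.12, 95% interval 0.02 to 0.54, limma adjusted p = 0.167; exact permutation p = 0.0801). Scaled reads stood at 49.8 ± 20.7 in KO and 30.7 ± 11.6 in WT (SD, n = 6 each). The ratio of 1.62 was close to that of Chrnb1, and the count behind each value was small. The parts of low counts and of the spread between mice in the missing call were not tested.

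Of the 4 members that passed the filter, 3 were called higher and none lower, against 3.13% called higher among all tested genes. Without KO 1, KO 3, WT 1, WT 2, WT 3 or WT 5, Chrna1 was the only member called.

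**Figure D1:**
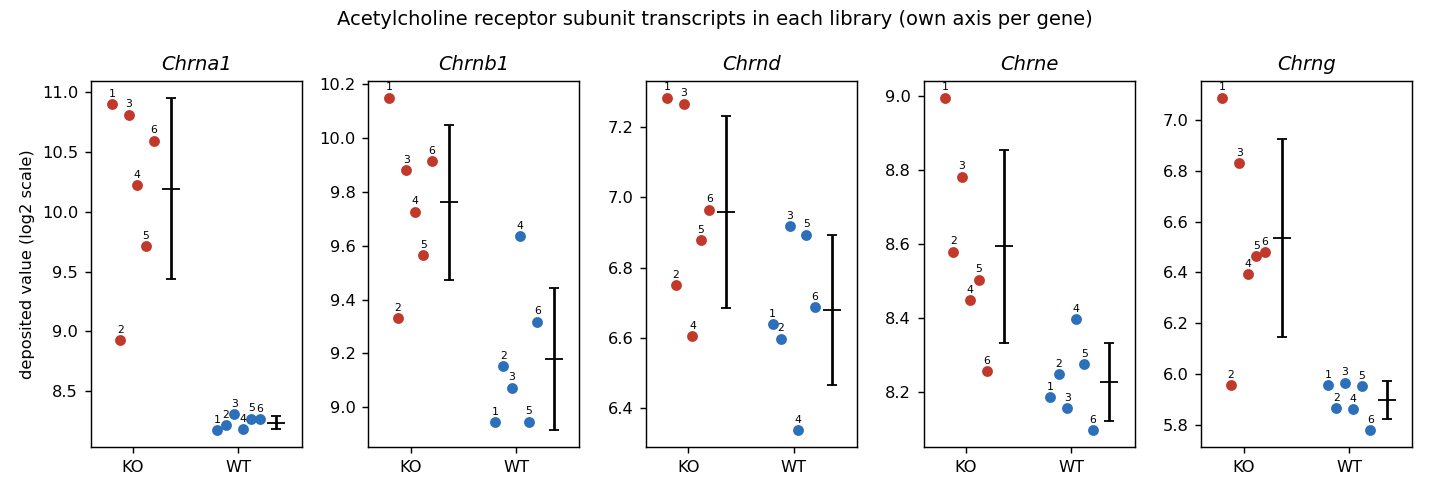
Deposited log2 value of each receptor subunit gene in the 6 KO libraries (red, left) and the 6 WT libraries (blue, right), with replicate numbers beside the points and the mean ± SD as a black bar; each gene has its own axis. The Chrna1 points of KO lie between 8.92 and 10.90 and those of WT between 8.17 and 8.30, while the groups overlap in the other 4 genes.

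The change of Chrna1 was larger than that of Chrnb1, Chrnd and Chrne. For each library the value of the other subunit was subtracted from that of Chrna1, and the groups were compared with exact two-sided permutation tests, adjusted over 4 such comparisons. The difference between Chrna1 and Chrnb1 was 0.43 ± 0.49 in KO and -0.94 ± 0.28 in WT (SD, n = 6 each), so Chrna1 changed by 1.38 more (exact permutation p = 0.00216, adjusted 0.00216). Against Chrnd the excess was 1.68 and against Chrne 1.59, each with the same p and adjusted p from the exact permutation test. In all 3 comparisons every KO library lay above every WT library. Chrna1 and Chrng could not be ordered. Their excess was 1.32 on the deposited scale (exact permutation adjusted p = 0.00216), but -0.26 on the scale of log2 of scaled reads plus 1 (exact permutation adjusted p = 0.411), where low values are less compressed.

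Levels of different subunits were compared per kb of exon, with exon lengths merged over all GENCODE M21 transcripts of a gene. In scaled reads per kb, Chrnb1 stood at 312 ± 67.9 in KO and 196 ± 45.2 in WT (SD, n = 6 each). Chrna1 stood at 275 ± 128 per kb in KO and 48.8 ± 2.48 in WT. Chrne stood at 179 ± 42.6 per kb in KO and 126 ± 12.9 in WT. Chrnd and Chrng were lower, at 15.1 ± 6.30 and 6.19 ± 4.65 per kb in KO, against 9.34 ± 3.53 and 0.619 ± 0.255 in WT.

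The order per kb differed between the groups. In all 6 WT libraries it ran Chrnb1, Chrne, Chrna1, Chrnd and Chrng, and the ranges of neighbouring genes did not overlap. KO 2 kept this order. In the other 5 KO libraries Chrna1 stood above Chrne, and in KO 1 and KO 3 it stood above Chrnb1 as well. The ranges of Chrnb1, Chrna1 and Chrne overlapped in KO, as did those of Chrnd and Chrng. Chrna1 per kb was 1.01, 0.413, 1.16, 0.843, 0.648 and 0.963 times Chrnb1 in KO 1 to KO 6, against 0.167 to 0.316 times in WT. The share of Chrna1 in the summed reads per kb of the 5 genes was 18.3% to 40.4% in KO and 9.74% to 14.4% in WT. The order and these shares depend on the merged exon lengths, 4386 bases for Chrna1, 2531 for Chrnb1 and 1690 for Chrne. Before division by length, Chrna1 and Chrne had nearly equal WT means, 214 and 213 scaled reads. In KO 2 Chrna1 then stood above Chrne, at 395 against 294. Before division, Chrna1 also stood above Chrnb1 in every KO library but KO 2.

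**Figure D2:**
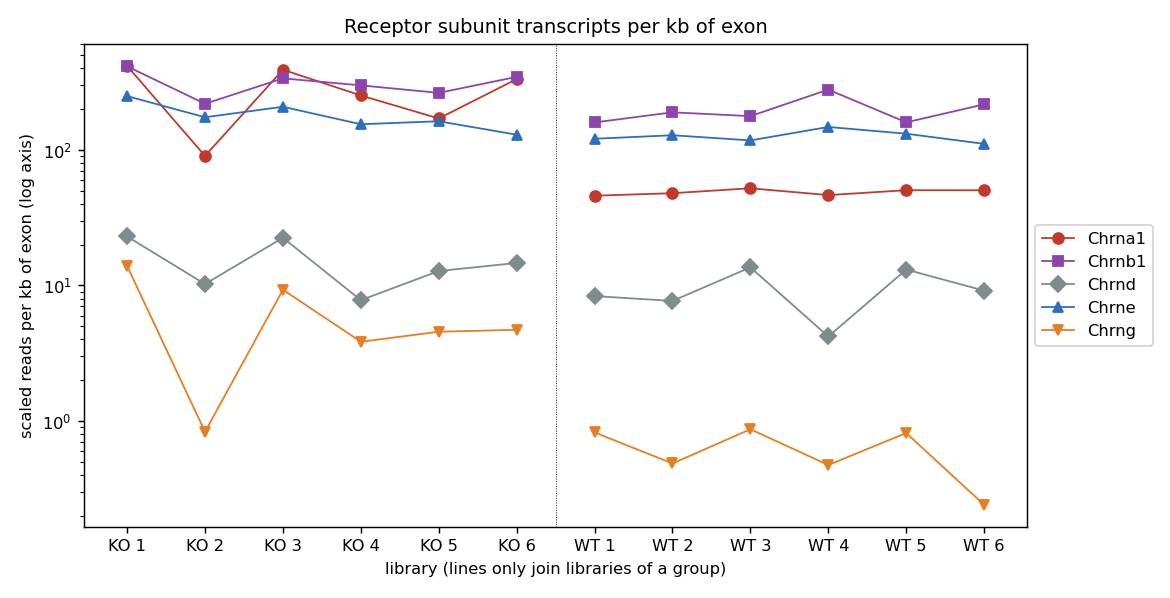
Scaled reads per kb of exon (log axis) of the 5 receptor subunit genes in each library, KO on the left and WT on the right. In WT the 5 genes keep 1 order, with Chrna1 at 45.9 to 52.0 per kb below Chrne at 111 to 147, whereas in KO Chrna1 reaches 415 per kb in KO 1 and is above Chrne everywhere but in KO 2.

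The fetal subunit stayed a small part of the pair that distinguishes the fetal from the adult receptor. Gamma made up 5.29%, 0.478%, 4.29%, 2.43%, 2.73% and 3.52% of the gamma and epsilon reads per kb in KO 1 to KO 6. In WT its share was 0.218% to 0.737%. KO 2 lay inside the WT range, and each of the other KO libraries lay above it. These shares depend on the merged exon lengths, 4163 bases for Chrng and 1690 for Chrne. Before division by length, KO 1, the library with the largest share, had 57.9 scaled reads of Chrng and 420 of Chrne.

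The subunits ranked the KO animals in similar but not equal ways. KO 1 was highest for all 5 genes. KO 3 ranked 2 for Chrna1, Chrng, Chrnd and Chrne and 3 for Chrnb1, and KO 2 was lowest for Chrna1, Chrnb1 and Chrng. KO 6 ranked 3 for Chrna1, Chrng and Chrnd but was lowest for Chrne. Remaining Ank2 was highest in KO 1 and KO 6 and lowest in KO 5. KO 2 ranked 4 for Ank2, at 28.9% of the WT mean in scaled reads, against 26.3% in KO 5 and 44.3% in KO 1.

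Nicotinic subunit genes outside the muscle receptor were mostly at or near zero, with 2 exceptions. Of 11 such genes, only Chrna10 passed the filter. Chrna10, known for its role with Chrna9 in the receptor of cochlear hair cells, had deposited log2 values of 8.81, 8.23, 8.90, 8.61, 8.50 and 8.73 in KO 1 to KO 6, against 8.11 to 8.39 in WT. KO 2 lay inside the WT range and the other KO libraries lay above it. Chrna10 rose by 0.37 (SE 0.10, limma adjusted p = 0.0369; exact permutation p = 0.0108). Its call was lost without any 1 of KO 1, KO 3, KO 6, WT 1, WT 2, WT 3, WT 5 and WT 6 (adjusted p from 0.0509 to 0.0895).

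Chrna9 did not pass the filter, and it is named after its values were seen. Its estimated reads were 77, 2, 39, 18, 10 and 85 in KO 1 to KO 6, against 1, 0, 1, 2, 4 and 3 in WT 1 to WT 6. KO 2 was again within the WT range. The group totals were 231 reads in KO and 11 in WT, a ratio of 18.0 at equal depth. The exact 95% interval of this ratio, from 9.88 to 36.6, covers counting error only and not the spread between mice. The deposited difference was 0.79 (exact permutation p = 0.00649). Chrna3 and Chrna6 were at the floor in every library. The other 7 genes had at most 12 reads in any library.

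Among receptor clustering genes, Musk was the only one called. Agrin from the nerve acts through Lrp4 and the kinase MuSK to gather receptors, which rapsyn anchors. Of 21 genes, 19 were tested, and 1 fell and none rose, which is near the share of all tested genes called (3.06% lower and 3.13% higher). The list median was 0.07, against -0.01 over all tested genes. The gene that fell was Musk, at 7.62, 8.48, 7.83, 7.85, 7.91 and 7.84 in KO 1 to KO 6, against 8.37, 8.90, 8.96, 7.94, 8.47 and 8.59 in WT 1 to WT 6 on the deposited log2 scale. KO 2 lay among the WT libraries, and the other 5 KO libraries lay below them all. Its change was -0.62 (SE 0.17, limma adjusted p = 0.0498; exact permutation p = 0.0173), and the call ended without any 1 library other than KO 2 and WT 4 (adjusted p from 0.0678 to 0.122) and with median centring (adjusted p = 0.0516). Among the genes not called, the smallest p-values belonged to Macf1, a cytoskeletal linker gene (0.28, adjusted p = 0.0673), Lama5, a laminin gene (0.27, adjusted p = 0.110), Crk, an adaptor gene downstream of Dok-7 (-0.32, adjusted p = 0.113), and Dtna, the alpha-dystrobrevin gene (-0.29, adjusted p = 0.124). Rapsn gave 0.11 (adjusted p = 0.344), Agrn 0.19 (adjusted p = 0.345), Lrp4 0.10 (adjusted p = 0.642) and Dok7 -0.10 (adjusted p = 0.404); these 4 are named for their roles, after their values were seen.

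Among 6 genes of acetylcholine synthesis, transport and breakdown, 3 were tested and 1 rose, against 3.13% of all tested genes. Ache encodes acetylcholinesterase, the enzyme that ends the signal, and stood at 9.32 to 10.40 in KO and 9.08 to 9.43 in WT on the deposited log2 scale, with KO 2 alone inside the WT range. Its change was 0.59 (SE 0.13, limma adjusted p = 0.0199), a call that ended without KO 6 or WT 3 (adjusted p = 0.0503 to 0.0521). Colq, which encodes the collagen tail that anchors the enzyme, gave -0.24 (adjusted p = 0.124), and Bche, the butyrylcholinesterase gene, gave -0.35 (adjusted p = 0.151). The list median was -0.24, against -0.01 over all tested genes. The nerve genes Chat, Slc18a3 and Slc5a7 were at the floor in every library.

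None of the 7 tested genes of receptor assembly was called by limma or by limma-voom, against 6.19% of all tested genes called by limma. An unadjusted limma p under 0.05 was found for 2 of the 7, against 3185 of all 12278 tested genes, which is a similar share. Their median was -0.05, against -0.01 over all tested genes. The chaperone gene Ric3 gave -0.25 (adjusted p = 0.174), Lynx1, which encodes a nicotinic receptor modulator, -0.28 (adjusted p = 0.189), the disulfide isomerase gene Pdia3 0.10 (adjusted p = 0.370) and the calnexin gene Canx -0.11 (adjusted p = 0.420).

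Of 20 genes that regulate or accompany activity-dependent transcription in muscle, 19 were tested, 5 rose and none fell, against 3.13% called higher and 3.06% lower among all tested genes. The list median was 0.08, against -0.01 over all tested genes. Gadd45a, a stress-inducible gene, rose by 1.13 (SE 0.21, adjusted p = 0.0136), with every KO library above every WT library and the call kept under all 18 alternatives. Ncam1, a neural cell adhesion gene, rose by 0.36 (adjusted p = 0.0230). Myf6, the myogenic factor MRF4, rose by 0.41 (adjusted p = 0.0374), Runx1, a transcription factor gene, by 0.63 (adjusted p = 0.0401) and Myh8, the perinatal myosin gene, by 1.18 (adjusted p = 0.0416). Without single libraries, the calls of these 4 ended in 3 (Ncam1), 8 (Myf6), 10 (Runx1) and 11 (Myh8) of 12 omissions, and with limma-voom on estimated reads those of Runx1 (adjusted p = 0.0721) and Myh8 (adjusted p = 0.111) ended. Among genes not called, Hdac5, a class II histone deacetylase gene, gave -0.22 (adjusted p = 0.0579), Myod1, the MyoD gene, 0.29 (adjusted p = 0.0770), Myh3, the embryonic myosin gene, 0.86 (adjusted p = 0.0921) and Gabpa, a subunit of the N-box factor, -0.27 (adjusted p = 0.110). Myog, the myogenin gene, named for its role, gave 0.20 (limma adjusted p = 0.309). These deposited differences understate the change of genes with few reads. In scaled reads the KO to WT ratio was 5.70 for Myh8, 2.97 for Runx1 and 2.80 for Gadd45a, against 5.63 for Chrna1. It was 1.51 for Ncam1, 1.35 for Myf6 and 3.79 for Myh3, which was not called.

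**Figure D3:**
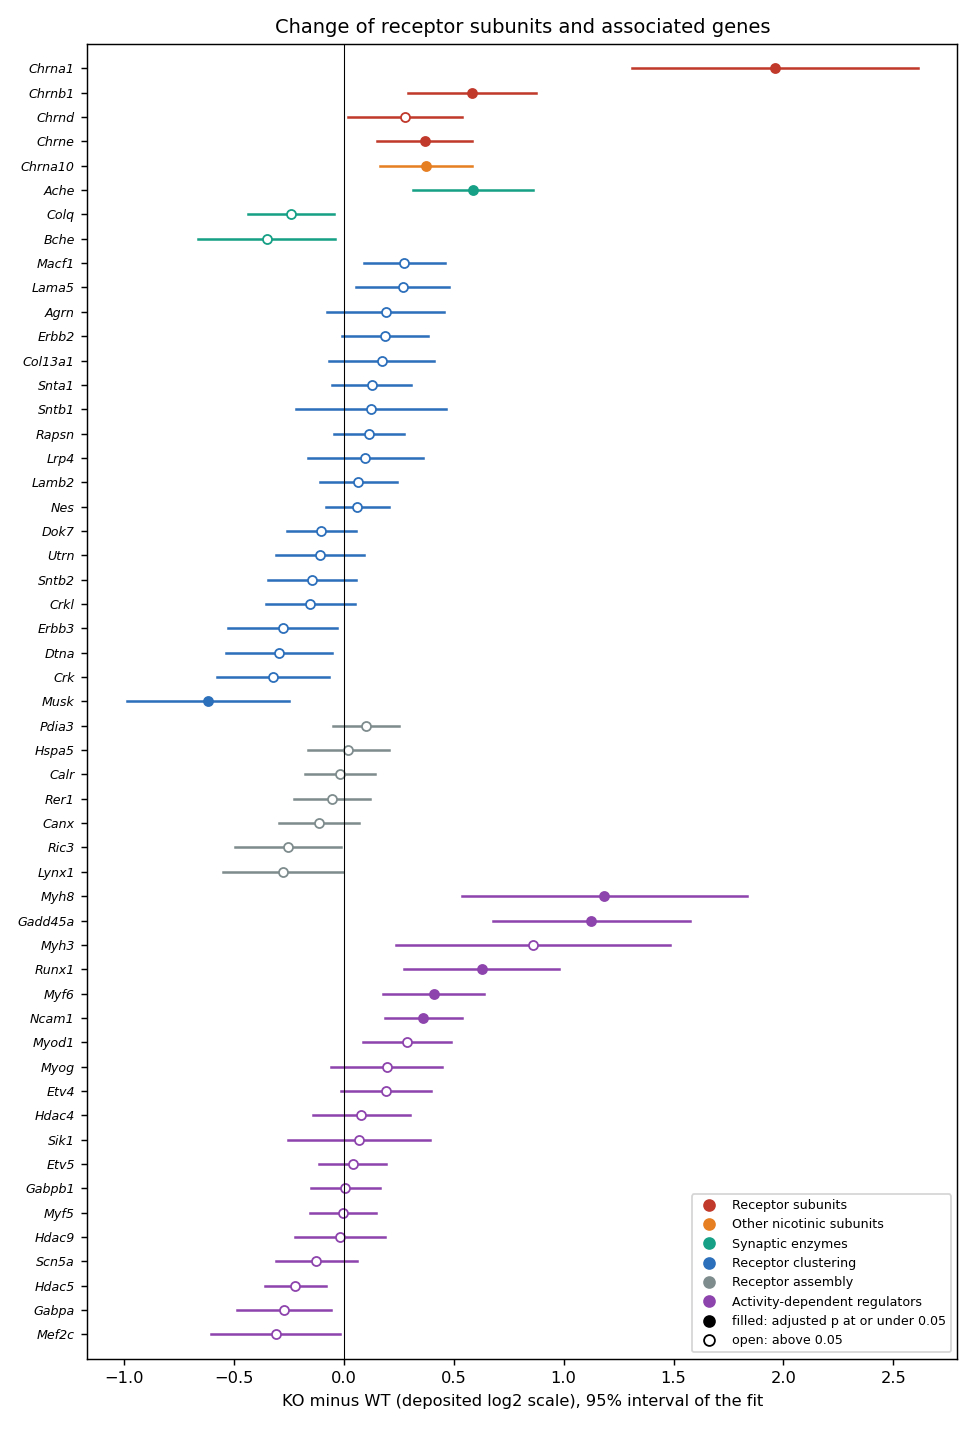
KO minus WT change on the deposited log2 scale with the 95% interval of the limma fit for the 4 tested receptor subunits and for the tested genes of 5 associated lists; filled points passed an adjusted p of 0.05. On this scale Chrna1 lies at 1.96, to the right of all others shown, and Musk at -0.62 is the only filled point left of zero. In scaled reads the KO to WT ratio of Myh8, 5.70, was near that of Chrna1, 5.63.

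Markers of other cell types were summed as scaled reads. The 8 skeletal muscle fibre markers, among them Ckm and Acta1, gave 2.87e+06 to 3.49e+06 in KO and 2.85e+06 to 3.86e+06 in WT, and none was called. The 4 satellite cell markers gave 295 to 419 in KO and 387 to 491 in WT, with Cdh15, which encodes M-cadherin, called lower. The satellite cell sum averaged 344 in KO and 443 in WT, with an exact two-sided permutation p of 0.0108 on log2 sums and 0.0866 after Benjamini-Hochberg adjustment over the 8 cell types. The endothelial sum averaged 2846 in KO and 3435 in WT, with an exact permutation p of 0.0346 (adjusted 0.139), and the other 6 sums had exact p from 0.0563 to 0.926. The 8 Schwann cell markers gave 525 to 7108 in KO and 1148 to 3855 in WT, with none called. Of 5 motor axon markers, Chat and Slc18a3 were at 0 and the sums were 2.00 to 12.0 in KO and 1.00 to 6.87 in WT. The endothelial sums were 2366 to 3750 in KO and 2891 to 3912 in WT, those of macrophages 128 to 285 in KO and 93.7 to 370 in WT, and those of fibro-adipogenic cells 3355 to 4777 in KO and 2632 to 5137 in WT. The 3 T cell markers reached at most 2.30 in KO and 2.42 in WT. The part of these differences in the receptor results was not tested.

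The profiles most like that of Chrna1 were those of Tnnt2, Mt3, Fam174b, H19 and Mt2. Each gene was centred on its own WT mean, and likeness was the root-mean-square distance from Chrna1 over the 12 libraries, among 11805 tested genes. The distance was 0.31 for Tnnt2, the cardiac troponin T gene, 0.35 for Mt3, a metallothionein gene, 0.50 for Fam174b, 0.55 for H19, an imprinted noncoding RNA, and 0.60 for Mt2, a metallothionein gene. In all 5 genes KO 2 lay within 0.42 of the WT mean, against 0.69 for Chrna1 itself. Of these, Tnnt2, Mt3, Fam174b and H19 were called, and Mt2 was not (1.44, limma adjusted p = 0.0615), against 3.13% called higher among all tested genes. The distance includes the rise of Chrna1 in KO, so a large rise in these genes follows from how they were chosen. The call of Tnnt2 ended in 10 of 18 alternatives, 8 of which left out a library, that of Mt3 with limma-voom on estimated reads (adjusted p = 0.0737) and that of Fam174b without KO 6 (adjusted p = 0.0517). The nearest to Chrnb1 were Aimp2 (0.12), Comtd1 (0.15) and H2afj (0.15). The nearest to Chrne were Pim1 (0.09), Inha (0.11) and Rhebl1 (0.12), and to Chrnd they were Ldhd (0.13), Fnbp1 (0.13) and Ifi203 (0.14).

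**Figure D4:**
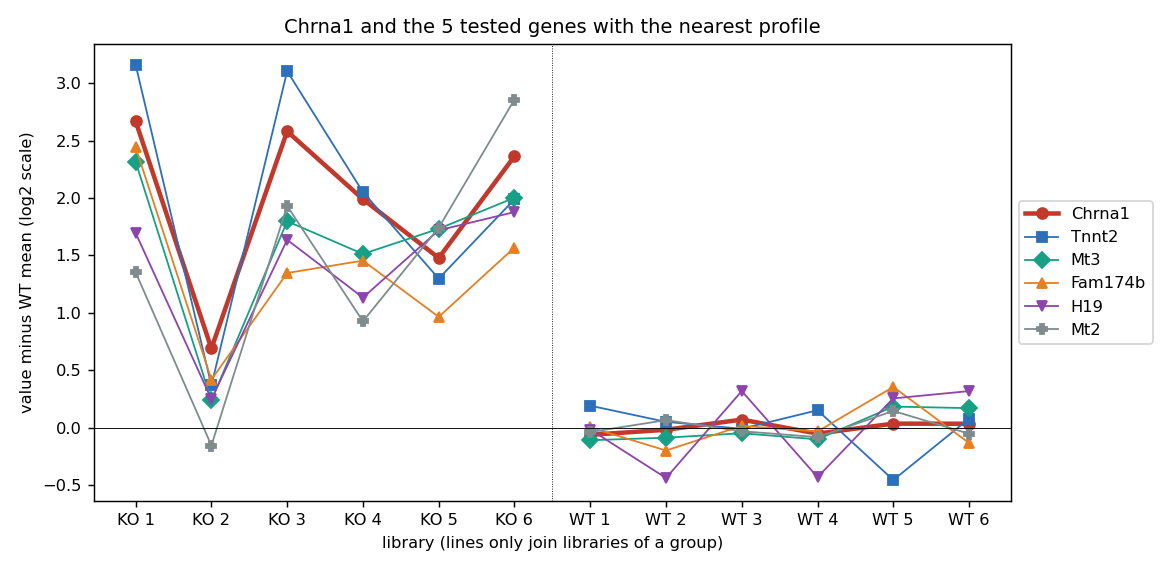
Deposited log2 value minus the WT mean of the same gene, for Chrna1 (thick red) and the 5 genes with the smallest distance from it, in each KO library (left) and WT library (right). KO 1 and KO 3 are the highest Chrna1 points and KO 2 the lowest of KO, and the WT points of Chrna1 stay within 0.07 of zero.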

How the data were processed

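Poly-A RNA of 12 libraries was sequenced in paired ends by a kit that, per the labels' protocols, has no step that marks strand. Tools named in the submitters' processing notes are fastp, STAR and featureCounts, with the build mm10; no version or normalization step is stated there. The authors deposited 1 table of log2 values; the transformation is not named. Its shape is that of a variance-stabilizing transformation. Inverting that closed form gave scaled reads, and dividing by the value of 1 read in a library gave estimated reads, of which 86.6% to 92.1% of the values below 20 lay within 0.1 of a whole number. Since the table holds no counts, the main test used the deposited values, and the estimated reads served the filter, depth, levels per kb and a limma-voom alternative.

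Genes reaching 10 estimated reads in 6 or more libraries were kept, and their deposited values were fitted with limma 3.58.1 (R 4.3.3), with group as the only term, trend and robust moderation. P-values are two-sided and adjusted over all 12278 tested genes (Benjamini-Hochberg), with a threshold of 0.05. Single values had exact permutation tests over all 924 assignments. On simulated data of 12278 genes the fit recovered 84% of 100 genes changed by 0.5 and 99% of 100 changed by 1, with 8 false calls. How far these figures apply to the deposited data was not tested. Called genes there numbered 200 to 1520 when single libraries were left out. The members and lists were chosen with earlier results of these data known. Genes named are the members, called list genes, up to 4 uncalled ones per list with the smallest p, and the nearest profiles; exceptions are marked. Alternatives were no filter, voom, quantile normalization, median centring, no trend or robust moderation, a replicate block, a log2 of scaled reads plus 1 and leaving out each library. Intervals on reads cover counting error only, since they pool the reads of a group and leave out the spread between mice. PCR duplicates cannot be told apart from other reads, so counting error may also be understated. Positions come from GENCODE M21 (mm10).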

Additional observations from a re-analysis of the deposited data

Results flagged for a closer look

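In groups of 6 libraries, a library was singled out when its gap to the nearest other library, divided by the range of the group, exceeded Dixon's 95% critical value. Of 92 groups examined, 7 were singled out, and chance alone singles out about 1 in 20. All values are on the deposited log2 scale. No library of a receptor subunit gene was singled out. In KO 2, Musk stood at 8.48 against 7.62 to 7.91 in the other KO libraries, and Myh3 at 6.20 against 7.45 to 8.01. In KO 6, Ric3 stood at 6.34 against 6.79 to 7.01 in the others. In KO 1, Inha stood at 7.82 against 7.10 to 7.34, and Rhebl1 at 7.23 against 6.71 to 6.86. In WT 1, Ache stood at 9.08 against 9.30 to 9.43 in the other WT libraries. In WT 5, Tnnt2 stood at 6.52 against 6.97 to 7.17.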

How the results depend on the processing

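Chrna1 kept its call in all 18 alternatives, with differences from 1.82 to 2.22 when single libraries were left out. Chrnb1 ran from 0.51 to 0.67 and Chrne from 0.29 to 0.44 across the same omissions, each losing its call in 7 of 12. Chrne also lost it with limma-voom on estimated reads (0.48, adjusted p = 0.0521) and without trend and robust moderation (0.37, adjusted p = 0.0519). Chrnd ran from 0.21 to 0.35 and was not called in any alternative. Chrng ran from 0.53 to 0.76, with exact permutation p from 0.00216 to 0.00649; limma-voom and quantile normalization covered filtered genes and give it no value. Without the filter limma called Chrng (0.64, adjusted p = 0.0159). The excess of Chrna1 over Chrng turned to -0.26 on log2 of scaled reads plus 1. The other excesses ran from 1.28 to 1.55 (Chrnb1), 1.603 to 1.89 (Chrnd) and 1.44 to 1.84 (Chrne), and that over Chrng from 1.23 to 1.46, when single libraries were left out. Called genes numbered 200 to 1520 under these omissions (760 in the full set), 108 to 686 higher and 92 to 834 lower, and members called 1 to 3. The highest came without KO 2 and the lowest without KO 6, and the total moved over 1.5 times without KO 1, KO 2, KO 3, KO 6, WT 1, WT 2, WT 3, WT 5 or WT 6. With quantile normalization the calls were 498 higher and 367 lower, against 384 and 376. Same-numbered KO and WT libraries had correlations of deviations from -0.36 to 0.29, so the numbers pair nothing known. With a replicate block, 822 genes were called, and Chrna1 (adjusted p = 0.0227), Chrnb1 (0.0263) and Chrne (0.0389) kept their calls, while Runx1 (0.0538), Myh8 (0.0710) and Tnnt2 (0.0508) lost theirs. The WT level of Chrng rests on 1 to 3 reads per library, so its ratio is imprecise.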

Other observations

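Dach2, which encodes a transcription repressor known to act on receptor and myogenin genes in muscle, did not pass the filter and is named after its values were seen. Its estimated reads were 5, 5, 9, 1, 6 and 1 in KO 1 to KO 6, against 30, 25, 35, 2, 49 and 48 in WT 1 to WT 6. All KO libraries lay below 5 of the WT libraries, and WT 4 lay within the KO range. The ratio of totals at equal depth was 0.123 with an exact 95% interval from 0.0787 to 0.184 that covers counting error only, and the exact permutation p of the deposited values was 0.0108. Tmem35a, which encodes the receptor assembly factor NACHO and is likewise below the filter and named after its values were seen, had 1 to 10 reads in KO and 0 to 4 in WT. WT 4 was also the highest WT library of Chrnb1 and Chrne and the lowest of Chrnd and Musk.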
